A study of Mus musculus with 24 samples.

Results

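The subject was the transient receptor potential (TRP) channels of sensory neurons, given by 9 genes: Trpv1, Trpv2, Trpa1, Trpm2, Trpm3, Trpm4, Trpm7, Trpm8 and Trpc6. The rows of the count tables whose Ensembl identifier belongs to these symbols were taken, 9 of 47643 identifiers, and the 3 libraries of each mouse were summed. The cells were GFP-positive cells sorted from L4 dorsal root ganglia (DRG) of mice of 8-9 weeks of age on a mixed C57BL/6 and AJ background, taken 3 d after a sciatic nerve crush on the other side. Control mice carried Nav1.8-Cre, the Tsc2 flox/+ genotype and the Rosa26-ZsGreen reporter, so that their sorted cells had lost 1 of the Tsc2 alleles. Nav-Tsc2 mice carried the same Cre and reporter with Tsc2 flox/null, so that the sorted cells could lose both alleles and every other cell of the animal had 1 null allele. There were 4 mice per genotype, replicates 1 and 2 male and replicates 3 and 4 female, each with 3 libraries of 100 cells. Nav1.8-Cre is active mainly in C-fiber nociceptors and also in some myelinated neurons, so the libraries mix several neuron types, and in such pools fewer cells of a type and less RNA per cell cannot be told apart.

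TRP channels are cation channels of the plasma membrane and of intracellular membranes, each built of subunits with the same transmembrane fold. In sensory neurons they turn heat, cold, irritants, reactive oxygen and lipid signals into depolarization and calcium entry, and several are modulated by phosphoinositides, by protein kinase C and by receptors coupled to phospholipase C. Tsc2 encodes tuberin, the subunit of the TSC complex that restrains mTORC1, the kinase complex that promotes protein synthesis and cell growth.

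Libraries held between 12210899 and 28641787 counts on genes in control and between 8339220 and 34228180 in Nav-Tsc2 mice. Tsc2, the deleted gene, lay at 13.4, 24.7, 21.5 and 24.1 CPM in control mice 1 to 4 and at 8.70, 8.51, 7.30 and 10.95 CPM in Nav-Tsc2 mice, where CPM is the depth-scaled count after TMM normalization, and fell by 1.24 ± 0.22 (SE) on the log2 scale (adjusted p = 0.0040, edgeR); the gene count also includes exons outside any deleted part. Of 10 sensory neuron markers, among them Scn10a, which encodes Nav1.8, all were measured, with a summed level of 11945 to 13773 CPM in control and 14425 to 17224 CPM in Nav-Tsc2 mice. Isl1 (-0.80 on the log2 scale) and Rbfox3 (-0.83) were called lower, Prph (0.72) was called higher and 7 were not called. Of these 7, Tubb3 (0.40) and Uchl1 (0.46) missed the call only by the size of the change (adjusted p = 0.0432 and 0.0119, edgeR). Tubb3 had the highest level of the 10 markers, at a mean of 5908 CPM in control and 7774 CPM in Nav-Tsc2 mice. Scn10a, Scn9a, Scn11a, Avil and Pou4f1 lay between -0.24 and 0.09 on the log2 scale. Glial markers summed to 543 to 818 CPM in control and 509 to 737 CPM in Nav-Tsc2 mice, with 0 of 10 called (1 at an unadjusted p under 0.05 and 1 called by DESeq2). The lists for A-fiber neurons (7 tested), fibroblasts (6 tested) and red blood cells (3 tested) had 0 called, against 1, 0 and 3 at an unadjusted p under 0.05 and 1, 0 and 3 called by DESeq2.

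A gene was called lower or higher in Nav-Tsc2 neurons where the adjusted p was under 0.05 and the log2 fold change under -0.5 or over 0.5. Among 17178 genes tested, 8.00% were called lower and 9.12% higher. All 9 channels passed the filter on low counts. Of these, Trpm2 was called lower, Trpv2 was called higher and 7 were called in neither direction. Read against these shares of all genes, 1 of 9 in each direction is near the background. The median log2 fold change was -0.43 over the 9 channels and 0.01 over all genes tested. The values of the 4 Nav-Tsc2 mice lay wholly outside the control range for Trpv2 and Trpm2, 2 of 9 channels, where 26.9% of all genes tested did so.

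**Figure D1:**
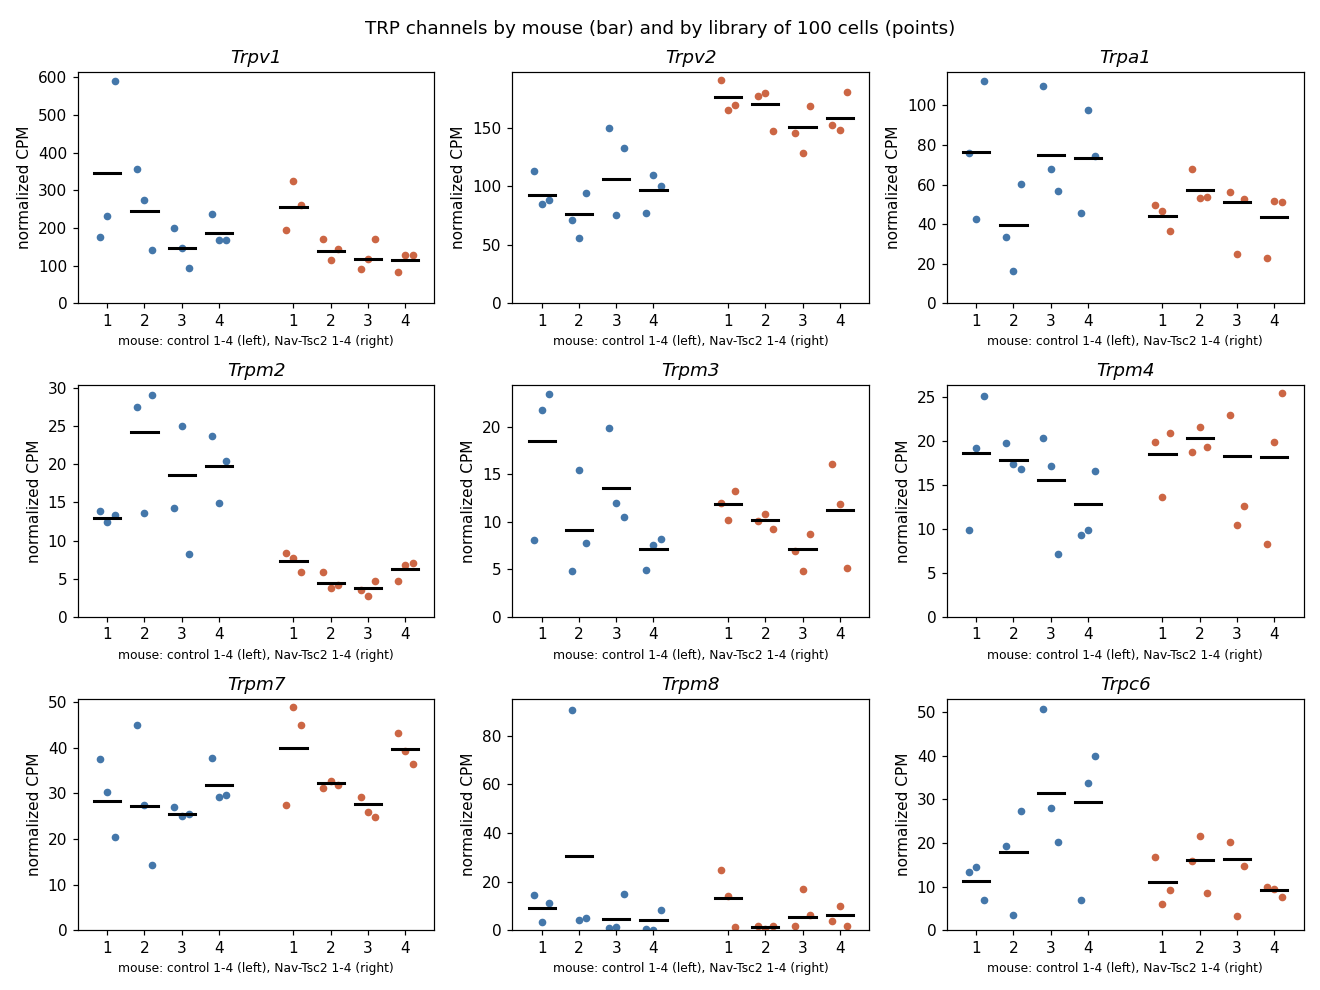
Normalized CPM of each of the 9 TRP channel genes on linear axes, with each mouse on the horizontal axis. Points are libraries of 100 cells (control blue, Nav-Tsc2 orange) and black bars the value of the mouse from its summed counts. The Trpv2 bars of Nav-Tsc2 mice (151 to 176 CPM) sit above all control bars (76.2 to 106 CPM), the Trpm2 bars (3.81 to 7.30 CPM) below all control bars (13.0 to 24.2 CPM), and Trpm8 has 1 control library at 90.7 CPM.

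Trpv2 encodes a cation channel that opens at noxious heat when expressed in heterologous cells and is known in DRG mainly from medium and large neurons. Control mice 1 to 4 had 92.5, 76.2, 106 and 97.0 CPM. Nav-Tsc2 mice 1 to 4 had 176, 170, 151 and 159 CPM. Every Nav-Tsc2 mouse was higher than every control mouse. The log2 fold change was 0.82 ± 0.11 (SE; 95% interval 0.57 to 1.07; adjusted p = 0.000954, edgeR's quasi-likelihood test), which corresponds to 176% of the control level. The libraries ranged from 55.5 to 150 CPM in control and from 128 to 191 CPM in Nav-Tsc2 mice, and 8 of 12 Nav-Tsc2 libraries exceeded the highest control library. The gain was present in each sex taken alone, at 1.04 ± 0.12 (SE) in males (adjusted p = 0.0022) and 0.61 ± 0.12 in females (adjusted p = 0.0285).

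Trpm2 encodes a channel gated by ADP-ribose and calcium that responds to oxidative stress and to warmth. Control mice 1 to 4 had 13.0, 24.2, 18.7 and 19.8 CPM. Nav-Tsc2 mice 1 to 4 had 7.30, 4.48, 3.81 and 6.31 CPM. Every Nav-Tsc2 mouse was lower than every control mouse. Trpm2 fell by 1.79 ± 0.26 (SE) on the log2 scale (95% interval -2.38 to -1.20; adjusted p = 0.00159, edgeR), to 29.0% of the control level. Of the Nav-Tsc2 libraries, 11 of 12 lay below the lowest control library (8.26 CPM), and the remaining library was at 8.41 CPM. The difference was -1.66 ± 0.40 (SE) in males (adjusted p = 0.0299) and -1.93 ± 0.41 in females (adjusted p = 0.0323).

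Both channels are also known from macrophages, so the macrophage markers were set beside them. The 8 markers summed to 3.56 to 8.77 CPM in control and 10.5 to 25.1 CPM in Nav-Tsc2 mice. C1qa, which encodes a complement subunit, was at or under 0.0846 CPM in every mouse, and Ptprc, which encodes CD45, at or under 0.62 CPM. Csf1r, which encodes a receptor for macrophage growth factors, had a mean of 0.803 CPM in control and 3.71 CPM in Nav-Tsc2 mice, and Cd68, a lysosomal marker, 0.495 and 2.03 CPM, both without overlap between genotypes and neither called by edgeR (adjusted p = 0.119 and 0.168). Of 6 markers tested, DESeq2 called Csf1r and Cx3cr1 higher, and edgeR called Cx3cr1, from at most 0.0602 CPM in control to between 2.82 and 9.33 CPM in Nav-Tsc2 mice. Cx3cr1 passed the filter on low counts through the Nav-Tsc2 mice alone, so a call, if any, could only be higher. Aif1, Lyz2 and Mrc1 were called by neither, with means of 0.870, 2.35 and 0.939 CPM in control and 1.10, 2.43 and 1.07 CPM in Nav-Tsc2 mice. Endothelial markers summed to 12.1 to 21.5 CPM in control and 19.7 to 34.9 CPM in Nav-Tsc2 mice. Of 4 tested, 3 were called higher (Flt1, Kdr and Ly6c1). Flt1 and Ly6c1, at most 0.0602 and 0.0339 CPM in control mice, also passed the filter through the Nav-Tsc2 mice alone. Their direction was therefore not open to the test. The remaining marker tested, Egfl7, made up most of the control sum and was not called (log2 fold change -0.26, adjusted p = 0.429, edgeR). Its mean was 16.5 CPM in control and 13.8 CPM in Nav-Tsc2 mice. Cldn5 and Cdh5 stayed at or under 0.0617 and 0.261 CPM. The part of these cells in the Trpm2 and Trpv2 results was not tested.

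The promoter windows of the 2 called channels are shown with those of Trpm7 and of the lysosomal family gene Mcoln1, because they differ in the letters CACGTG, the E-box core that transcription factors of the TFEB family and others bind. Windows span 250 bases before to 50 bases after a RefSeq start (GRCm38.p6), 5′ to 3′ on the strand of the gene, with CACGTG in capitals. The letters read the same on both strands, no other motif was searched, and Trpv2 has 3 windows, of which the most upstream is printed.
Trpv2 (chr11:62574236-62574535, plus strand): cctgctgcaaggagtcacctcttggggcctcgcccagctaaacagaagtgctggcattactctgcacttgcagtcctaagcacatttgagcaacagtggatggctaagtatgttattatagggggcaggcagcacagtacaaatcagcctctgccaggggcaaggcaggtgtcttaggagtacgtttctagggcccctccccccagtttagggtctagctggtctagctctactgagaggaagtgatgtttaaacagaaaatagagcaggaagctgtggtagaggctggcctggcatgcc
Trpm2 (chr10:77969823-77970122, minus strand): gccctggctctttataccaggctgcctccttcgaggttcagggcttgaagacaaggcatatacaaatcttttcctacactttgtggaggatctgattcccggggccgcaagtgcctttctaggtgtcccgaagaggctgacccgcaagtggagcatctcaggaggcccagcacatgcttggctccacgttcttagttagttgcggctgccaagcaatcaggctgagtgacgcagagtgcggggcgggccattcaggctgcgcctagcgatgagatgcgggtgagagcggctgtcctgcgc
Trpm7 (chr2:126876212-126876511, minus strand): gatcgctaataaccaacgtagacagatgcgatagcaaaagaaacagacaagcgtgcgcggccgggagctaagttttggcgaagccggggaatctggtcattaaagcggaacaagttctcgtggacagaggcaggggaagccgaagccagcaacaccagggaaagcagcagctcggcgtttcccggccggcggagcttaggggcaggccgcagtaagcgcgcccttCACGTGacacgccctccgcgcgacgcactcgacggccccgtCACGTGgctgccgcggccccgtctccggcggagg
Mcoln1 (chr8:3500269-3500568, plus strand): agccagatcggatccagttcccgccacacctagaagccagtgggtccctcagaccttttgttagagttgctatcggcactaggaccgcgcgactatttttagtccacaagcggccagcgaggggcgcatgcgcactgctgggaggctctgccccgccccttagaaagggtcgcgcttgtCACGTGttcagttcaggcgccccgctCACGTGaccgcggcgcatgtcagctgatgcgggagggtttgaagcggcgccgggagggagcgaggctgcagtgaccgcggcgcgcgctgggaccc
In the Trpm7 window CACGTG begins 25 bases before and 16 bases after the start, and in the Mcoln1 window 71 and 45 bases before it. Of 7 channels with a window, Trpm7 was the 1 that held the letters, as did 5 of 23 TRP family genes (Trpm7, Mcoln1, Mcoln2, Trpm1 and Trpv3), against 8.09% of 27025 genes and 7.15% of 32851 windows. A match describes the letters of the window and no binding was measured.

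The remaining heat and irritant channels did not pass the test. Trpv1, which encodes the capsaicin and heat receptor of nociceptors, had 345, 245, 147 and 187 CPM in control mice 1 to 4 and 255, 139, 118 and 115 CPM in Nav-Tsc2 mice. The genotypes overlapped, with a log2 fold change of -0.56 ± 0.31 (SE; 95% interval -1.26 to 0.14; adjusted p = 0.248). Trpa1, which encodes a receptor of electrophilic irritants such as mustard oil, had 76.5, 39.7, 75.1 and 73.3 CPM in control and 44.3, 57.4, 51.0 and 43.6 CPM in Nav-Tsc2 mice. Control mouse 2 was lower than every Nav-Tsc2 mouse and the other 3 control mice were higher than every Nav-Tsc2 mouse. The log2 fold change was -0.43 ± 0.20 (SE; adjusted p = 0.167). Without control mouse 2, Trpa1 was called lower, at -0.61 (adjusted p = 0.00990). Trpm3, which encodes a channel opened by heat and by pregnenolone sulfate, had 18.4, 9.09, 13.5 and 7.13 CPM in control and 11.9, 10.2, 7.15 and 11.2 CPM in Nav-Tsc2 mice. These ranges overlapped almost fully (log2 fold change -0.25 ± 0.30 SE, adjusted p = 0.618), and the sign turned to 0.030 without control mouse 1.

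Trpm8, which encodes the cold and menthol receptor, had 9.17, 30.7, 4.45 and 4.08 CPM in control mice 1 to 4 and 13.3, 1.19, 5.31 and 6.14 CPM in Nav-Tsc2 mice. The control group was set by 1 library. Library A of control mouse 2 held 90.7 CPM, against 4.07 and 5.21 CPM in libraries B and C of the same mouse. The log2 fold change was -0.90 ± 0.78 (SE; 95% interval -2.64 to 0.84; adjusted p = 0.467). It was 0.21 (adjusted p = 0.852) when that library was left out of the sum. Of 10 cold neuron markers, 9 matched a symbol and were tested. Chrna3, Kcnk2, Kcna1 and Kcna2, which encode a nicotinic receptor subunit and potassium channels, were called lower, and Penk, which encodes proenkephalin, and Gfra3, the artemin receptor, were called higher. Foxp2, Kcnk3 and Gfra1 were not called, at log2 fold changes of 0.31, 0.16 and 0.39. Of all genes tested, 8.00% were called lower and 9.12% were called higher. The median log2 fold change of the 9 was 0.16. Penk ranged from 15.5 to 136 CPM in control and from 126 to 1262 CPM in Nav-Tsc2 mice.

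Trpm4, Trpm7 and Trpc6 were not called. Trpm4, which encodes a calcium-activated monovalent cation channel, had 18.6, 17.9, 15.5 and 12.8 CPM in control and 18.5, 20.3, 18.2 and 18.2 CPM in Nav-Tsc2 mice (log2 fold change 0.21 ± 0.15 SE, adjusted p = 0.357). Trpm7, which encodes a magnesium-permeable channel fused to a kinase, had 28.3, 27.3, 25.6 and 31.8 CPM in control and 39.9, 32.3, 27.6 and 39.6 CPM in Nav-Tsc2 mice (0.30 ± 0.14 SE, adjusted p = 0.174). Their 95% intervals ran from -0.12 to 0.55 and from -0.02 to 0.63, so a rise of 0.5 on the log2 scale lay inside both intervals. Trpc6, which encodes a diacylglycerol-gated channel, had 11.3, 18.0, 31.5 and 29.4 CPM in control and 11.0, 16.1, 16.3 and 9.12 CPM in Nav-Tsc2 mice. The 2 female control mice stood above all Nav-Tsc2 mice, and the 2 male control mice lay among them or just above. The log2 fold change was -0.78 ± 0.33 (SE; adjusted p = 0.130), and Trpc6 was called lower without control mouse 1 (-1.0, adjusted p = 0.0347).

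To compare channels with each other, CPM was divided by the merged exon length in kb. In control mice Trpv1 had the highest level, 62.8 ± 23.4 CPM per kb (SD, n = 4). Trpv2 followed at 20.7 ± 2.80 and Trpa1 at 15.5 ± 4.15 CPM per kb, and their ranges met (17.0 to 23.7 and 9.31 to 18.0). Trpc6 at 4.45 ± 1.89, Trpm8 at 2.56 ± 2.67 and Trpm7 at 2.50 ± 0.23 CPM per kb had overlapping ranges, as did Trpm2 at 1.52 ± 0.37 and Trpm4 at 1.50 ± 0.24. Trpm3 was lowest at 0.49 ± 0.21 CPM per kb. Levels in Nav-Tsc2 mice were led by Trpv1 at 42.6 ± 18.1 and Trpv2 at 36.6 ± 2.54 CPM per kb, whose ranges overlapped. Trpm2 was 8th at 0.44 ± 0.13, and Trpm7 at 3.08 ± 0.53 stood above Trpc6 at 2.60 ± 0.72 by mean with overlapping ranges. The length of the longest coding transcript in place of merged exons kept Trpv1, Trpv2 and Trpa1 as the first 3 in control and placed Trpm8 7th instead of 5th. In Nav-Tsc2 mice that length placed Trpv2 at a mean of 56.4 above Trpv1 at 46.7 CPM per kb.

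The 3 libraries of a mouse came from different cells of the same ganglia, so their spread was compared with counting error. On the log2(CPM + 1) scale, the SD between libraries of a control mouse was lowest for Trpv2 (0.36) and highest for Trpc6 (1.06) and Trpm8 (1.71). In Nav-Tsc2 mice it was 0.16 for Trpv2, 0.78 for Trpc6 and 1.23 for Trpm8. Counting error alone gave an SD between 0.0256 (Trpv1) and 0.131 (Trpm8) in control, and in both genotypes and all 9 channels the spread between libraries exceeded it. In control mice the highest library held 88.8% of the summed library CPM of Trpm8 at the median over mice, against 40.7% for Trpv2. Trpm8 had 4 to 1447 counts per control library, with a median of 93.5.

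**Figure D2:**
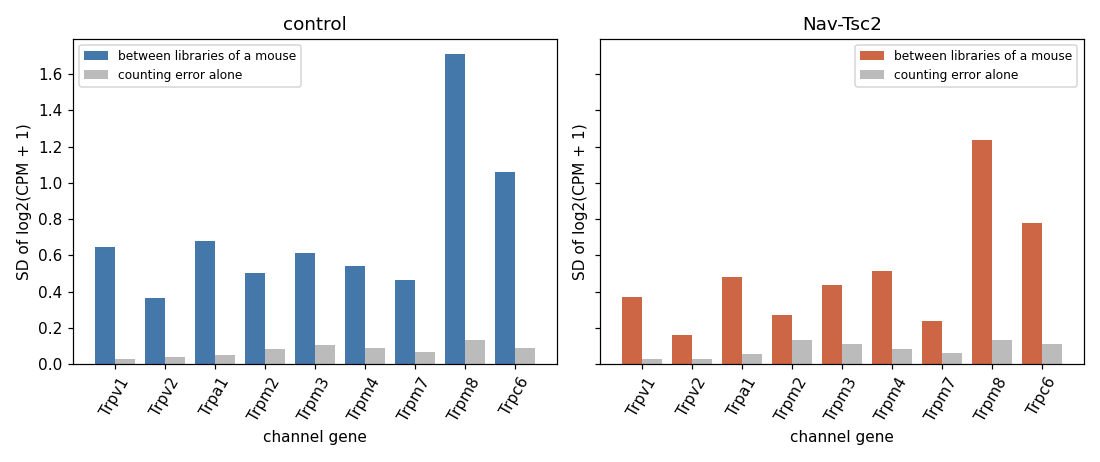
SD of log2(CPM + 1) between the 3 libraries of a mouse, pooled over the 4 mice of a genotype (coloured bars), beside the SD that counting error alone would give (grey bars), for each channel in control and Nav-Tsc2 mice. Coloured bars exceed grey bars throughout, with Trpm8 tallest in both genotypes (1.71 and 1.23) and Trpv2 lowest (0.36 and 0.16).

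Libraries of the same mouse were also used to describe which channels varied together, after each library was centred on its mouse (24 libraries of 8 mice). Of 36 pairs of channels, 3 had a Pearson r beyond 0.5 in size. These were Trpv2 with Trpc6 (0.62), Trpa1 with Trpc6 (0.61) and Trpv2 with Trpa1 (0.60). The median over pairs was 0.05, and Trpa1 with Trpm7 was lowest at -0.42. Mrgprd, a receptor that marks non-peptidergic nociceptors, tracked Trpv2 and Trpc6, at r of 0.60 for each, and ran opposite to Trpv1 (-0.71). All points share 3 libraries per mouse and the same pools of 100 cells.

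Among 8449 genes with a mean of at least 10 CPM, the genes most like each channel over these libraries were named by the same r. They were Cacul1 (0.81) and Rcbtb1 (0.77) for Trpv1. They were Synpr (0.85), Snx10 (0.84) and Rsu1 (0.83) for Trpv2, and Hccs (0.87) and Cfap206 (0.83) for Trpa1. Trpc6 varied most closely with Slc9a3r2 (0.89), Plxnc1 (0.88) and Tmem79 (0.88). Trpm2 had Kcnh7 (0.74), Jak1 (0.72) and Gprasp1 (0.71), the lowest values of the 9. Trpm8 had Rpl7a (0.80), Akr1a1 (0.78) and Sf3b2 (0.78), Trpm3 had C4b (0.81), Sertm1 (0.77) and Commd8 (0.74), Trpm4 had Rpn1 (0.82), Atp8a1 (0.81) and Mxi1 (0.80), and Trpm7 had Rps3 (0.80), 4833420G17Rik (0.78) and Ap5z1 (0.78). The most negative r lay between -0.76 and -0.88 for the 9 channels, of similar size to the most positive.

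Whether genotype differences depended on sex was tested with an interaction term, with 2 mice per sex and genotype. By edgeR the interaction was called for 1 gene, 0.00582% of 17178, at an adjusted p under 0.05, and by DESeq2 for 230 genes with a negative and 152 with a positive interaction of 30194. None of the 9 channels was called by edgeR or by DESeq2, and Trpv2 and Trpc6 had an unadjusted p under 0.05 in both (in edgeR, -0.43, p = 0.0390, adjusted p = 0.505 for Trpv2 and -1.15, p = 0.0490, adjusted p = 0.541 for Trpc6). In control mice Trpc6 had 11.3 and 18.0 CPM in males and 31.5 and 29.4 CPM in females, a female minus male difference of 1.06 ± 0.35 (SE; adjusted p = 0.250). Trpv1 ran the other way, with 345 and 245 CPM in control males and 147 and 187 CPM in control females (-0.82 ± 0.28 SE, adjusted p = 0.268). Of all genes, 0.640% were called between control females and males, and 0 of 9 channels were (unadjusted p under 0.05 for Trpv1 and Trpc6). Between genotypes, 16.3% of genes in males and 7.29% in females had an adjusted p under 0.05, and Trpm2 and Trpv2 did in each.

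**Figure D3:**
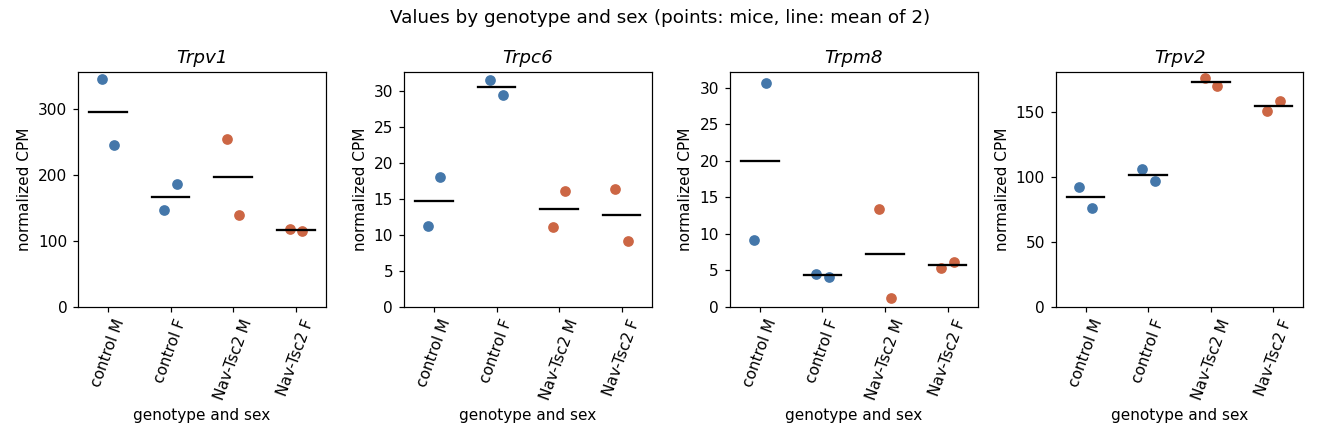
Normalized CPM of Trpv1, Trpc6, Trpm8 and Trpv2 for each mouse, by genotype and sex (M male, F female). Points are mice and lines the mean of 2, with control in blue and Nav-Tsc2 in orange. For Trpc6, the 2 control females (29.4 and 31.5 CPM) stand above the other 6 mice (9.12 to 18.0 CPM), while the Trpv2 points of Nav-Tsc2 mice of both sexes lie above all control points.

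The family list held 19 further genes, of which 14 passed the low-count filter. Trpc7 and Trpm6 were called lower, Mcoln1, Trpm1 and Pkd2l1 were called higher, and 9 were not called, with a median log2 fold change of 0.62. Of all genes tested, 8.00% were called lower and 9.12% higher. Trpm1 and Pkd2l1, which also enter the median, passed the filter through the Nav-Tsc2 mice alone, so their direction was not open to the test. Mcoln1 encodes the calcium channel of lysosomes. It had 19.5, 30.4, 42.1 and 37.8 CPM in control mice 1 to 4 and 73.5, 71.3, 63.4 and 78.4 CPM in Nav-Tsc2 mice, without overlap. Mcoln1 rose by 1.14 ± 0.21 (SE; adjusted p = 0.00480).

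Trpc7, a diacylglycerol-gated relative of Trpc6, had 10.4, 3.65, 4.25 and 2.03 CPM in control and 1.15, 0.513, 0.212 and 1.35 CPM in Nav-Tsc2 mice. It fell by 2.65 ± 0.68 (SE; adjusted p = 0.0219) and lost the call without control mouse 1 or without Nav-Tsc2 mouse 2 (adjusted p up to 0.0673). Trpm6, a magnesium channel related to Trpm7, had 1.56 to 3.26 CPM in control and 0.672 to 1.32 CPM in Nav-Tsc2 mice. It fell by 1.52 ± 0.40 (SE; adjusted p = 0.0249), a call kept in 12 of 18 alternative fits and lost, among others, without control mouse 2 and without Nav-Tsc2 mouse 1, 2 or 4 (adjusted p up to 0.0708).

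Trpm1 and Pkd2l1 were near 0 in control. Both passed the low-count filter through the Nav-Tsc2 mice alone, so a call, if any, could only be higher. Trpm1, known from retinal bipolar cells and melanocytes, had 2 counts in all control mice and 283 in Nav-Tsc2 mice, a ratio of 140 with a 95% exact counting interval from 38.5 to 1166, and 0.677 to 1.50 CPM in Nav-Tsc2 mice. Pkd2l1, known from sour-sensing taste cells and neurons that contact cerebrospinal fluid, had 9 counts in all control mice and 335 in Nav-Tsc2 mice. The ratio was 37.0 (95% exact counting interval 19.2 to 81.5), with at most 0.0803 CPM in control and 0.735 to 2.41 CPM in Nav-Tsc2 mice. The levels of both were low in Nav-Tsc2 neurons beside those of Trpv1 and Trpv2. Trpc2, Trpm5, Trpv4, Trpv5 and Mcoln3 did not pass the low-count filter and were not tested. Of these, Mcoln3 had 1 count in all control mice and 544 in Nav-Tsc2 mice, where it ranged from 0.135 to 6.84 CPM. Trpv4 had 2 counts in control and 74 in Nav-Tsc2 mice.

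**Figure D4:**
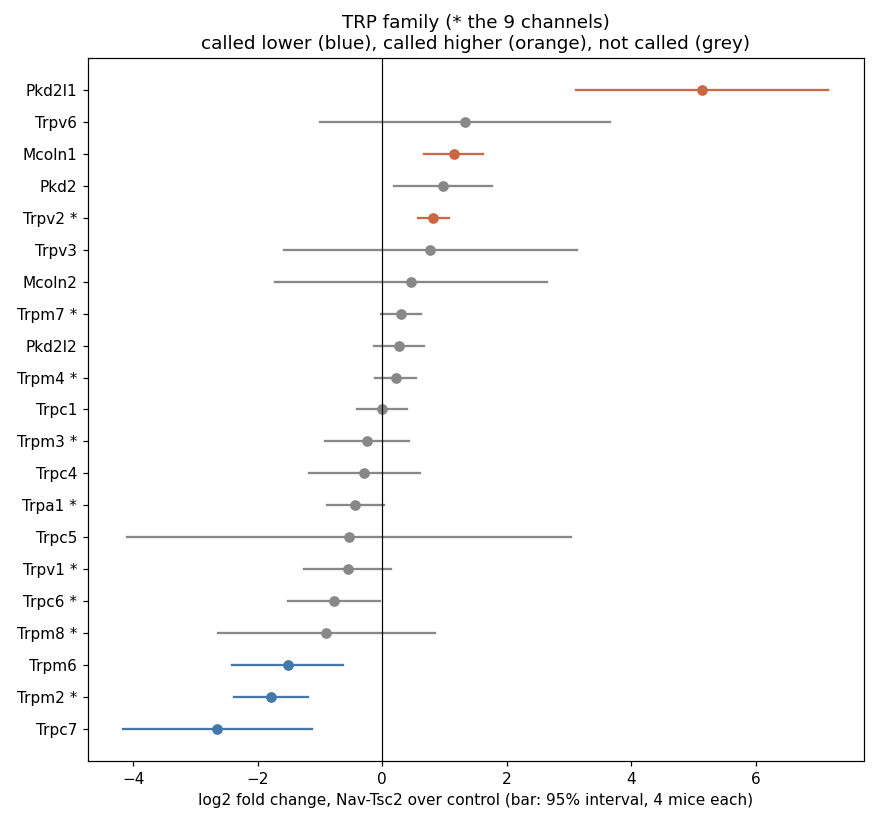
Log2 fold change of Nav-Tsc2 over control for the 9 channels and other TRP family genes with more than 3 counts in each genotype, which leaves out Trpm1, with 95% intervals as bars (edgeR, 4 mice per genotype). Blue marks genes called lower, orange genes called higher and grey genes not called, and asterisks mark the 9 channels. Trpv2 and Mcoln1 have narrow intervals above 0, Trpm2 one below 0, and Trpm8 an interval from -2.64 to 0.84.

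Proteins that set TRP channel activity were described from a list of 25 regulators, chosen with earlier results of these data known. Of 24 tested, 6 were called lower, 2 higher and 16 neither, and the median log2 fold change was -0.15. Over all genes tested the shares were 8.00% lower and 9.12% higher. Pirt, a membrane protein of DRG neurons that binds phosphoinositides and modulates Trpv1 and Trpm8, had 1059 to 1211 CPM in control and 738 to 758 CPM in Nav-Tsc2 mice. It fell by 0.57 ± 0.07 (SE; adjusted p = 0.000545). Tmem100, an adaptor that weakens the inhibition of Trpa1 by Trpv1, had 493, 460, 137 and 332 CPM in control mice 1 to 4 and 10.9, 21.4, 41.3 and 52.1 CPM in Nav-Tsc2 mice. Tmem100 fell by 3.50 ± 0.54 (SE; adjusted p = 0.00195), and the lowest control mouse was still above the highest Nav-Tsc2 mouse.

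The signaling enzymes on the list split by isoform. Plcb1, a phospholipase C that consumes the phosphoinositide many TRP channels need, fell by 2.37 ± 0.18 (SE; adjusted p = 5.68e-05), from 38.9 ± 4.81 to 7.54 ± 1.61 CPM (SD, n = 4). The phospholipase C genes Plcb3 (-0.05), Plcb4 (-0.25) and Plcg1 (0.29) were not called, and Plcb2 was not tested. Prkcb and Prkce, protein kinase C isoforms, fell by 2.70 ± 0.32 and 0.78 ± 0.11 (SE; adjusted p = 0.000471 and 0.00157), while Prkca (0.27, adjusted p = 0.638) and Prkcd (-0.22, adjusted p = 0.402) were not called. Src, a tyrosine kinase that promotes Trpv1 surface expression, rose by 1.33 ± 0.38 (SE; adjusted p = 0.0337), a call kept in 10 of 18 alternative fits and lost, among others, without control mouse 1 or 4 and without any 1 of the Nav-Tsc2 mice (adjusted p up to 0.0887). Pi4ka, a kinase that makes the precursor of that phosphoinositide, rose by 0.74 ± 0.14 (SE; adjusted p = 0.00653).

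Receptors known to sensitize or open TRP channels made a list of 21, also chosen with earlier results of these data known. Of 20 tested, 9 were called lower, 0 higher and 11 neither, with a median log2 fold change of -1.57. The shares over all genes tested were 8.00% lower and 9.12% higher. DESeq2 likewise called 0 higher, and 2, Mrgprd and Hrh1, had an unadjusted p under 0.05 with a positive fold change (adjusted p = 0.0935 and 0.127). Ptgir and Ptger4, prostaglandin receptors, fell by 2.70 ± 0.37 and 1.91 ± 0.38 (SE; adjusted p = 0.00109 and 0.00675). Prokr2, a prokineticin receptor, fell by 3.65 ± 0.68 (SE; adjusted p = 0.00505). The thrombin receptor gene F2r (-2.35), the nucleotide receptor gene P2ry2 (-1.67), the serotonin receptor gene Htr2a (-2.62) and the opioid receptor gene Oprm1 (-1.02) were also called lower, with adjusted p between 0.00762 and 0.0423. F2r had 4.54, 10.4, 13.7 and 50.9 CPM in control mice 1 to 4 and 1.93 to 7.12 CPM in Nav-Tsc2 mice. For F2r and Oprm1 the genotypes overlapped. Whether the receptor calls held in the alternative fits was not examined. Mrgpra3, an itch receptor that acts through Trpa1, had 36.2 and 79.7 CPM in control males, 1.03 and 2.27 CPM in control females and at most 0.195 CPM in Nav-Tsc2 mice (adjusted p = 0.0056). Mrgpra3, which is among the 9 called lower and enters the median, passed the low-count filter through the control mice alone. Its call, if any, could therefore only be lower.

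**Figure D5:**
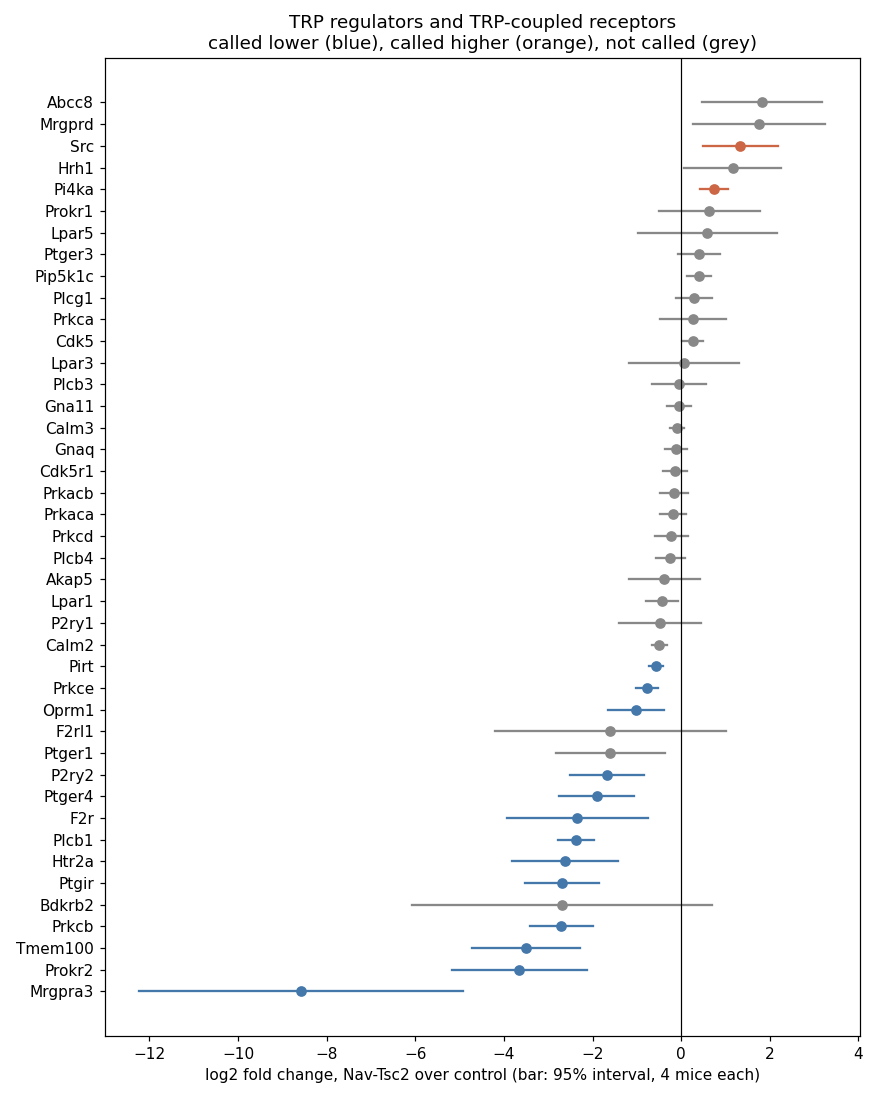
Log2 fold change of Nav-Tsc2 over control for regulators of TRP channels and receptors coupled to them, with 95% intervals as bars (edgeR, 4 mice per genotype), blue for called lower, orange for called higher and grey for not called. The called genes lie mostly to the left of 0, from Pirt at -0.57 to Mrgpra3 at -8.58, whose fitted value rests on 17 counts in Nav-Tsc2 mice, and Src and Pi4ka lie to the right.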

How the data were processed

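RNA-seq was measured in 24 libraries of 100 sorted cells, made with the SMARTer Ultra Low RNA kit. The authors aligned single reads to mm10 with STAR and deposited raw counts per gene made with HTSeq, without normalization; between 47.6% and 55.9% of the reads in these tables were not assigned to a gene and stayed out of library sizes and tests. A deposited DESeq2 table of the authors' comparison was not used. Of 47643 identifiers 47224 matched GENCODE M21.

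The 3 libraries of a mouse were summed and tested with edgeR 4.0.16 in R 4.3.3 (TMM, filterByExpr, quasi-likelihood F-test, Benjamini-Hochberg over 17178 genes). Standard errors were derived as the ratio of the log2 fold change to the root of F. Library depths are given in the report; intervals from counts cover counting error only. The fit was tested on simulated data. Named genes were the 9 channels, called genes of the family, regulator and receptor lists, and the 3 genes most correlated with each channel. A few genes that this rule names are left out here. Tsc2, Mrgprd, Hrh1, Prkca, Prkcd, Plcb2, Plcb3, Plcb4, Plcg1, Penk, Gfra3 and the cell type markers named were chosen after their values were seen. Alternatives used limma 3.58.1 and DESeq2 1.42.0. The channels and lists were chosen with earlier results of these data known. The kit does not mark strand; overlapping genes cover 8.20% of the Trpm8 exons, 2.57% of Trpm3 and 0.730% of Trpm2.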

Additional observations from a re-analysis of the deposited data

Results flagged for a closer look

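In control mice Trpa1 was at 39.7 CPM in mouse 2, far from the other 3 (73.3 to 76.5 CPM) by Dixon's criterion for a single distant value. Trpm4 was at 20.3 CPM in Nav-Tsc2 mouse 2, above the other 3 (18.2 to 18.5 CPM). Trpm1 was at 0.0379 CPM in control mouse 2, where the other control mice had no counts, and at 0.677 CPM in Nav-Tsc2 mouse 4, below the other 3 Nav-Tsc2 mice (1.40 to 1.50 CPM). Chance gives about 1 such value in 20 groups, or 1.4 over the 28 groups of 4 mice examined.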

How the results depend on the processing

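Of 18 alternative fits, Trpv2 was called in all (log2 fold change 0.73 to 0.88) and Trpm2 in all (-1.96 to -1.65). With the replicate number as a block, 2 channels were called lower, Trpm2 and Trpv1 (-0.57, adjusted p = 0.0203). The numbers were not taken as pairs, because deviations of equally numbered mice correlated at 0.083, 0.108, 0.019 and 0.107, not all above 0.1, and control mouse 1 correlated best with Nav-Tsc2 mouse 2. Leaving out each mouse gave 1 to 2 channels called lower and 1 to 3 family genes called lower. The added channel was Trpc6 without control mouse 1 and Trpa1 without control mouse 2. DESeq2 called 7 family genes higher, adding Trpv4, Pkd2 and Mcoln3, and so did limma-voom on all libraries with mouse as random effect. The sign of Trpm8 turned to 0.88 with the median of the 3 libraries, 0.14 without control mouse 2 and 0.21 without library A of that mouse, an alternative chosen after seeing the data, and that of Trpm3 to 0.030 without control mouse 1. Leaving out each mouse gave -1.52 to 0.14 for Trpm8 and -0.44 to 0.030 for Trpm3. The median of all genes moved to 0.14 in the random-effect fit and 0.11 with the median of libraries. The causes were not tested. With 4 mice per genotype, the 95% interval of Trpm8 spanned -2.64 to 0.84, so differences between these values were not excluded for it.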
